A study of Sus scrofa with 33 samples.

Results

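Of 6765 genes with a single symbol on the array, 6 are described here: CLDN5, CDH5, TEK and NOSTRIN, which are known from endothelial cells, and CNN1 and TAGLN, which are known from smooth muscle cells. They were chosen by name, and 9 of the 23999 probe sets tested carry one of these symbols alone. CLDN5, CDH5, TEK, CNN1 and TAGLN were chosen from the contrast of the 120 min biopsy with the baseline one, where they had already been named, and how NOSTRIN was chosen is not recorded, so that contrast is treated as used for all 6. Their changes from baseline are therefore given as descriptions with no test. Tests are kept for the later change and for the differences between the arms.

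Right ventricular free wall myocardium was biopsied 3 times in each of 11 pigs (Sus scrofa), with 1 array per biopsy. All pigs had a baseline biopsy and then pulmonary banding for 120 min, in which the artery to the lungs is narrowed until the right ventricle fails, followed by another biopsy. After randomisation, the shunt arm (6 pigs) spent 60 min with a modified Glenn shunt, which leads blood of the superior vena cava into the pulmonary artery past the right heart, and the control arm (5 pigs) spent the same 60 min under banding alone. The last biopsy came at the end of those 60 min. No unbanded pigs were analysed here, so time and earlier biopsies are part of every change. The sources used here state no breed, age or sex. Values are log2 RMA values, a summary of the probes of each probe set after background correction and quantile normalisation. A difference of 1 is a 2-fold change, levels of different probe sets are not compared, and the number of arrays limits the precision.

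Spiked-in control RNAs divided the arrays by pig. The Dap control lay between 3.22 and 3.57 in shunt pigs 1 to 4, between 8.08 and 8.60 in shunt pigs 5 and 6, and between 6.64 and 8.95 in the control pigs. The BioB control lay between 8.01 and 8.54 in shunt pigs 1 to 4, between 5.82 and 6.15 in shunt pigs 5 and 6, and between 8.84 and 10.02 in the control pigs. The 3 array sets are told apart by these controls alone, as the labels name no hybridisation batch. Each pig's arrays belong to 1 set, and no set holds both arms, so any gap between the arms is also a gap between sets and the causes cannot be told apart. The 3' minus 5' difference of the GAPDH probe sets, a sign of RNA quality, had medians of 0.691, 0.674 and 0.575 over the 3 biopsies of shunt pigs and of 0.785, 0.999 and 1.02 over those of control pigs. In bulk tissue, fewer cells of a type and less RNA per cell cannot be told apart, and this holds for every value below. The 12 measured cardiomyocyte markers averaged between 13.62 and 13.98 per array. The endothelial markers PECAM1 (mean 10.59) and VWF (9.06) and the smooth muscle actin gene ACTA2 (11.05), added here outside the rule for named genes, were measured in the same arrays.

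Endothelial cells line every vessel of the heart and seal the wall with junctions. Claudin-5, the product of CLDN5, is a strand protein of endothelial tight junctions, and VE-cadherin, the product of CDH5, holds adherens junctions together. TEK encodes the receptor tyrosine kinase to which angiopoietins bind, and NOSTRIN encodes an adaptor that binds endothelial nitric oxide synthase and directs its traffic inside the cell. Vascular smooth muscle contracts through actin and myosin. CNN1 (calponin) and TAGLN (transgelin) encode related actin-binding proteins of its contractile apparatus. Both belong to the classical targets of serum response factor, SRF, which is driven by myocardin in smooth muscle and by myocardin-related factors where actin filaments assemble.

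After 120 min of banding CLDN5, CNN1 and TAGLN were higher and TEK, CDH5 and NOSTRIN were lower than at baseline. The fitted changes over 11 pigs ran from 1.14 for CNN1 to -0.41 for TEK. All 6 passed the threshold of an adjusted p of 0.05 in limma, a linear model across all probe sets. This contrast chose them, and 29.0% of all probe sets passed it, 11.6% higher and 17.4% lower, so nothing is read from the count. Overlap with the baseline range, and counts of pigs outside it, are likewise descriptions of chosen genes. No share over all probe sets is given beside them, so nothing is read from those counts or from a lack of overlap. Among the 6765 genes CNN1 held rank 77 and CLDN5 rank 127 from the largest rise, while CDH5 held rank 1415 from the largest fall.

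**Figure D1:**
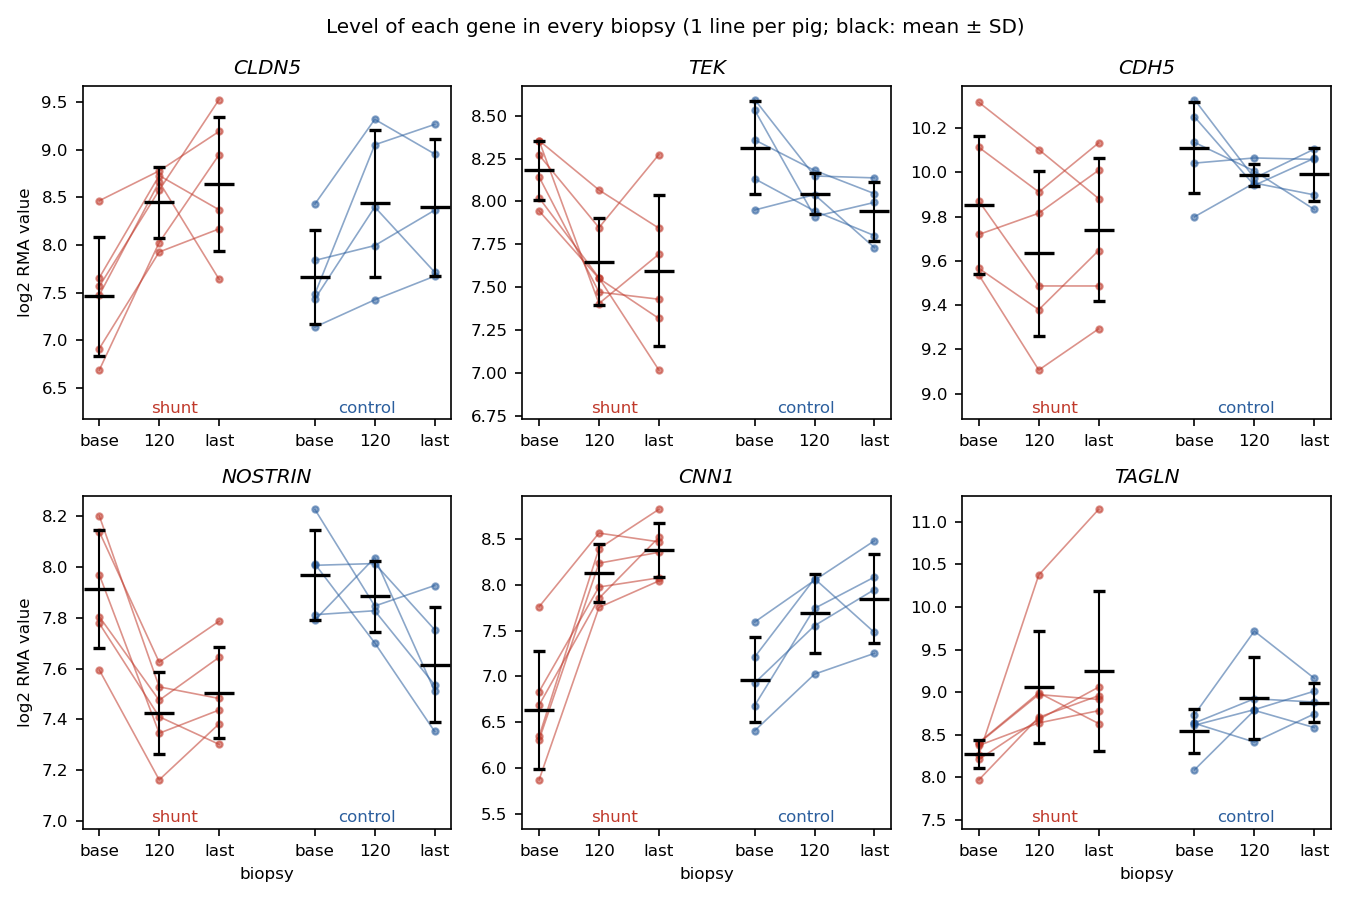
Log2 RMA value of each gene (y axis, a separate scale for each panel) at baseline, after 120 min of banding and at the last biopsy (x axis), with 1 line per pig, shunt arm at left in red and control arm at right in blue. Black marks are means and bars are SD over 6 shunt pigs or 5 control pigs. TAGLN of shunt pig 1 stands at 10.38 and 11.15 after baseline, above all other arrays.

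CLDN5 was higher at 120 min in 11 of 11 pigs. In the shunt arm its levels had a lowest, median and highest value of 6.69, 7.52 and 8.46 at baseline, 7.93, 8.62 and 8.78 at 120 min and 7.64, 8.66 and 9.53 at the last biopsy. In control pigs 1 to 5 the levels were 8.43, 7.49, 7.14, 7.43 and 7.84 at baseline, then 9.32, 9.05, 7.42, 8.40 and 7.99 at 120 min, and 8.96, 9.27, 7.67, 7.71 and 8.36 at the last biopsy. Of the 6 shunt pigs, 4 stood above the whole baseline range of their arm at 120 min, and in both arms the groups overlapped. The fitted change at 120 min was 0.89 ± 0.17 (SE, n = 11 pigs), or 1.85-fold. It averaged 0.99 ± 0.35 in shunt pigs and 0.77 ± 0.57 in control pigs (SD, n = 6 and 5). Control pig 5, with 0.16, changed least and control pig 2, with 1.57, most.

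CDH5, the other junction gene, had the smallest change of the 6. Its lowest, median and highest levels in shunt pigs were 9.54, 9.79 and 10.32 at baseline, 9.11, 9.65 and 10.10 at 120 min and 9.29, 9.76 and 10.13 at the last biopsy. In the control pigs it stood at 10.13, 10.33, 9.80, 10.25 and 10.04 at baseline, at 10.01, 9.97, 9.95, 9.94 and 10.06 at 120 min, and at 9.83, 10.10, 9.90, 10.06 and 10.06 at the last biopsy. The groups overlapped at every step, and the control pigs lay close together at 120 min, with an SD of 0.05. The fitted change at 120 min was -0.18 ± 0.06 (SE, n = 11 pigs), a 1.13-fold lower level, and 8 of 11 pigs were lower. The other CDH5 probe set, with a mean level of 5.52, changed by -0.15 ± 0.07. The 2 endothelial junction genes thus had changes of opposite sign at 120 min, and that of CLDN5 was several times larger.

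TEK was lower at 120 min in 10 of 11 pigs. Shunt pigs had lowest, median and highest levels of 7.94, 8.21 and 8.35 at baseline, 7.40, 7.55 and 8.07 at 120 min and 7.02, 7.56 and 8.27 at the last biopsy. In the control pigs the levels were 8.13, 8.59, 8.36, 8.53 and 7.95 at baseline, 7.94, 8.15, 8.18, 7.91 and 8.04 at 120 min, and 7.80, 8.14, 8.05, 7.99 and 7.73 at the last biopsy. Of the 6 shunt pigs, 5 lay below their arm's baseline range at 120 min, and of the 5 control pigs, 2 did. The fitted change was -0.41 ± 0.08 (SE, n = 11 pigs), a 1.33-fold lower level. Control pig 5, in which TEK was 0.09 higher, was the exception. The other TEK probe sets, with mean levels of 3.44 and 3.52, near the low end of the values on the arrays (2.21), did not follow: their changes were 0.07 ± 0.06 and 0.07 ± 0.07. With the mean of the 3 probe sets in place of the brightest the change was -0.09 ± 0.05, so the size of the TEK change rests on 1 probe set.

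NOSTRIN was lower at 120 min in 8 of 11 pigs, and the 3 exceptions were control pigs. Its lowest, median and highest levels in shunt pigs were 7.59, 7.89 and 8.20 at baseline, 7.16, 7.44 and 7.62 at 120 min and 7.30, 7.46 and 7.79 at the last biopsy. In the control pigs the levels were 7.81, 8.23, 8.01, 8.01 and 7.79 at baseline, 7.83, 7.85, 8.01, 7.70 and 8.04 at 120 min, and 7.54, 7.93, 7.75, 7.35 and 7.51 at the last biopsy. In the shunt arm 5 of 6 pigs were below the baseline range of their arm at 120 min. In the control arm 1 of 5 was below it at 120 min and 4 of 5 at the last biopsy. The fitted change at 120 min was -0.31 ± 0.06 (SE, n = 11 pigs), or 1.24-fold lower. It averaged -0.49 ± 0.14 in shunt pigs and -0.08 ± 0.26 in control pigs (SD, n = 6 and 5).

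CNN1 had the largest change of the 6 and was higher at 120 min in 11 of 11 pigs. Shunt pigs had lowest, median and highest levels of 5.87, 6.52 and 7.76 at baseline, 7.75, 8.10 and 8.56 at 120 min and 8.04, 8.41 and 8.82 at the last biopsy. In the control pigs the levels were 7.59, 6.93, 6.68, 6.41 and 7.21 at baseline, 8.05, 7.55, 7.74, 7.03 and 8.06 at 120 min, and 8.48, 7.95, 8.08, 7.25 and 7.48 at the last biopsy. In the shunt arm the last biopsies did not overlap with baseline, and at 120 min 5 of 6 stood above it. In the control arm 3 of 5 pigs stood above the baseline range at each later biopsy. The fitted change at 120 min was 1.14 ± 0.12 (SE, n = 11 pigs), or 2.21-fold. Shunt pigs 1, 2 and 3, with 2.05, 1.88 and 1.92, changed most, and the highest control value was 1.06 in pig 3.

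TAGLN was higher at 120 min in 10 of 11 pigs. Its lowest, median and highest levels in shunt pigs were 7.97, 8.32 and 8.41 at baseline, 8.64, 8.84 and 10.38 at 120 min and 8.63, 8.93 and 11.15 at the last biopsy. In the control pigs the levels were 8.64, 8.61, 8.08, 8.63 and 8.73 at baseline, 8.92, 8.79, 8.78, 8.41 and 9.72 at 120 min, and 8.88, 9.01, 8.58, 8.74 and 9.16 at the last biopsy. Both later biopsies of the shunt arm lay above its baseline without overlap, while the control groups overlapped. The fitted change at 120 min was 0.61 ± 0.16 (SE, n = 11 pigs), or 1.52-fold. Shunt pig 1, with a change of 2.11, carried much of the mean, and without it the mean change was 0.46 ± 0.09.

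From baseline to the last biopsy the directions were those of 120 min in both arms, again as a description, since the baseline arrays are those of the choosing contrast. The whole-course value of CNN1 was 1.74 in shunt pigs and 0.88 in control pigs, and that of CLDN5 was 1.18 in shunt pigs and 0.73 in control pigs, or 0.47 without control pig 2. Both genes were higher in 11 of 11 pigs. For TAGLN it was 0.98 in shunt pigs, or 0.60 without shunt pig 1, and 0.34 in control pigs, and TAGLN too was higher in 11 of 11. For NOSTRIN it was -0.41 in shunt pigs and -0.35 in control pigs, with 11 of 11 pigs lower. TEK had -0.59 in shunt pigs and -0.37 in control pigs, with 10 of 11 lower. Its other probe sets, both near the low end of the signal, had 0.09 and 0.04 in shunt pigs and -0.09 and -0.14 in control pigs. CDH5 had the least, -0.11 in shunt pigs and -0.12 in control pigs, with 6 of 11 lower. The other CDH5 probe set had -0.06 in shunt pigs and -0.24 in control pigs.

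**Figure D2:**
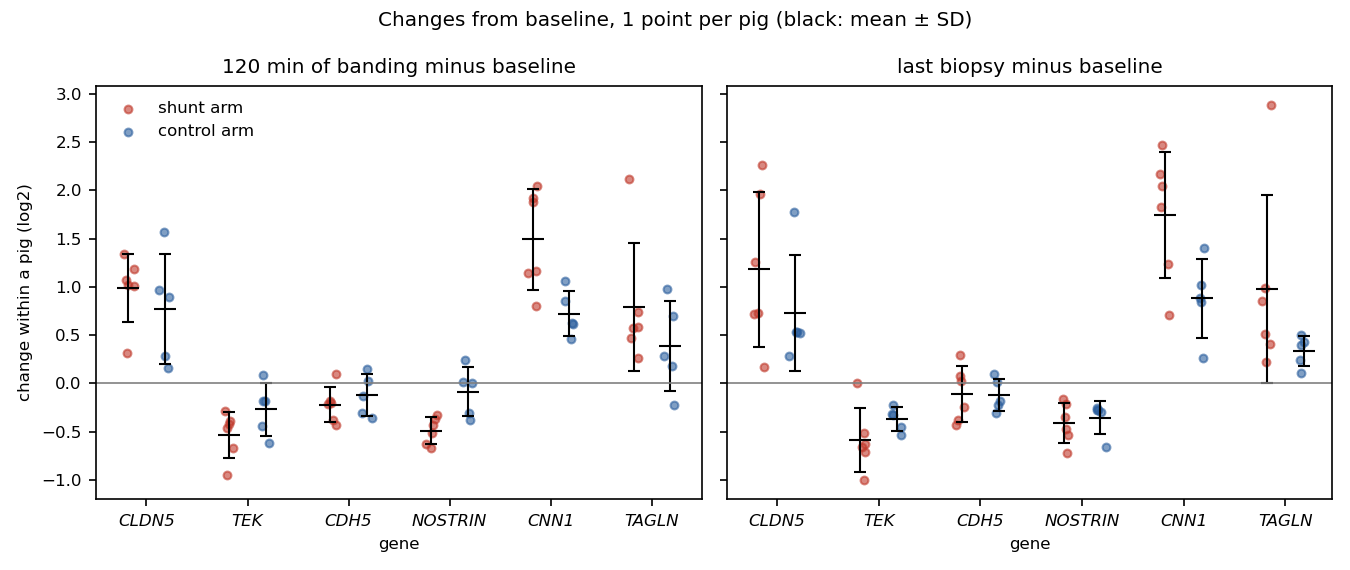
Change within a pig (log2, y axis) of each gene (x axis) from baseline to 120 min of banding (left) and to the last biopsy (right), with 1 point per pig, shunt arm in red and control arm in blue. Black marks are means and bars are SD over 6 shunt pigs or 5 control pigs. All CLDN5 and CNN1 points lie above 0 in both panels, and all NOSTRIN points of the last biopsy lie below it.

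The step between the 120 min and last biopsies, here the later change, asks what 60 min with the shunt or under further banding did. It shares the 120 min arrays with the choosing comparison. In limma 0 of the 6 genes passed in either arm, and 0 of 23999 probe sets did (0% with the shunt and 0% under banding alone). At an unadjusted p under 0.05 there were 0 of 6 genes in the shunt arm, where 8.94% of all probe sets had such a p, and 1 of 6 in the control arm, where 3.07% did. In the shunt arm the estimates lay between -0.05 ± 0.11 for TEK and 0.25 ± 0.17 for CNN1 (SE, n = 6 pigs), with limma adjusted p from 0.700 to 0.923. The 1 gene in the control arm was NOSTRIN, with -0.27 ± 0.09 (SE, n = 5 pigs), lower in 4 of 5 pigs, an unadjusted p of 0.00585 and a limma adjusted p of 0.9998. The other control estimates lay between -0.10 ± 0.12 for TEK and 0.16 ± 0.18 for CNN1. The 95% confidence intervals in the shunt arm reached from -0.27 to 0.66 for CLDN5 and from -0.09 to 0.59 for CNN1, so changes of those sizes could not be told from 0.

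The difference between the arms in that later change is the comparison in which the shunt was the assigned difference. None of the 6 passed, nor did any probe set (0%), while at an unadjusted p under 0.05 there were 1 of 6 genes and 3.07% of all probe sets. The gene was again NOSTRIN. Its change averaged 0.08 ± 0.13 in shunt pigs and -0.27 ± 0.22 in control pigs (SD, n = 6 and 5), a difference of 0.35 ± 0.12 (SE) with a 95% confidence interval of 0.10 to 0.60, an unadjusted p of 0.00770 and a limma adjusted p of 0.9997. The other 5 differences lay between 0.05 ± 0.16 for TEK and 0.24 ± 0.32 for TAGLN. Their 95% confidence intervals all included 0 and reached up to 0.92 for CLDN5.

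Before the shunt was opened both arms had the same banding, and their responses at 120 min were compared too. In limma 0 of 6 genes and 0% of probe sets passed, with 2 of 6 genes and 6.90% of probe sets at an unadjusted p under 0.05. CNN1 differed by 0.77 ± 0.25 (shunt minus control, SE), with 1.49 ± 0.52 in shunt pigs and 0.72 ± 0.24 in control pigs (SD, n = 6 and 5), and a limma adjusted p of 0.515. NOSTRIN differed by -0.41 ± 0.12, with a limma adjusted p of 0.474. The NOSTRIN difference of the later change had the opposite sign, and the 2 differences share the 120 min arrays. Over the whole course the NOSTRIN difference was -0.05 ± 0.12.

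Over the whole course the CNN1 difference between the arms was 0.86 ± 0.25 (SE), with a 95% confidence interval of 0.35 to 1.37 and a limma adjusted p of 0.169. It was the 1 member of 6 with an unadjusted p under 0.05, a level that 12.2% of all probe sets reached, and 0.00417% of probe sets passed the threshold. Without shunt pig 4, whose CNN1 baseline of 7.76 was the highest of its arm, the difference was 1.07 and its limma adjusted p 0.0319. In that fit 274 probe sets passed, against 1 with all pigs, so the crossing was not particular to CNN1. Over all alternatives the limma adjusted p of CNN1 ran from 0.0319 to 0.671. TAGLN had a difference of 0.64 ± 0.32 with a limma adjusted p of 0.419, or 0.26 without shunt pig 1. Differences of the remaining 4 genes ran from -0.21 ± 0.16 for TEK to 0.45 ± 0.33 for CLDN5. Over the same course the median arm difference was 0.51 for the 7 neutrophil and monocyte markers and 1.54 for the 3 erythrocyte markers. In limma 0 of either list passed, while 4 of 7 and 2 of 3 had an unadjusted p under 0.05. The part of these markers and of the GAPDH values in the CNN1 difference was not tested.

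**Figure D3:**
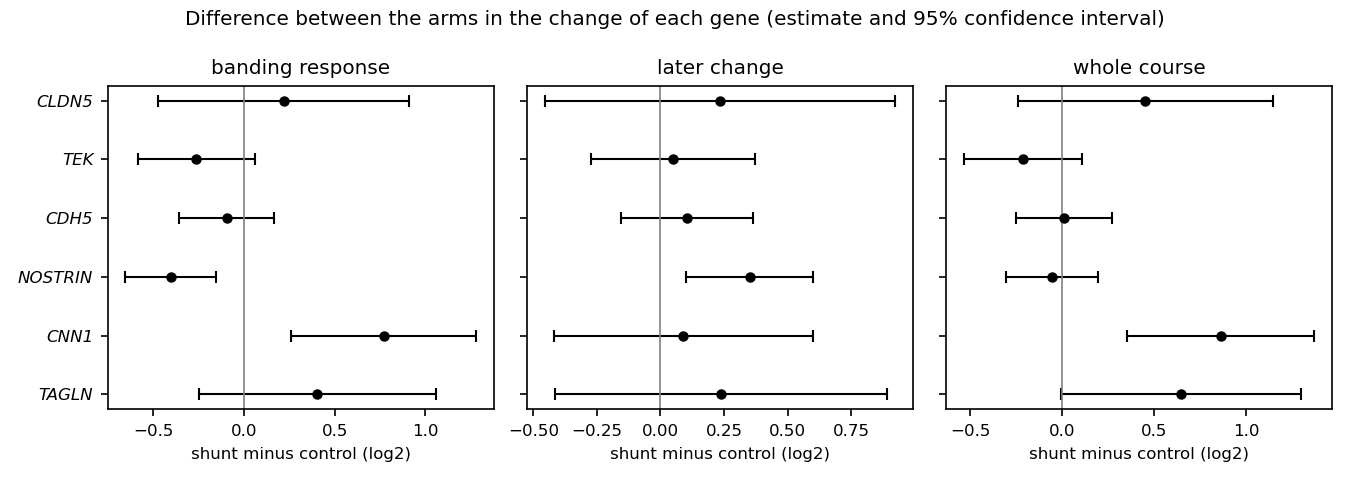
Difference between the arms (x axis, shunt minus control, log2) in the change of each gene (y axis) at 120 min of banding, from 120 min to the last biopsy and over the whole course. Points are limma estimates from 33 arrays and bars are 95% confidence intervals, not adjusted for the number of genes. The intervals of NOSTRIN and CNN1 exclude 0 at 120 min, that of NOSTRIN in the later change and that of CNN1 over the whole course, and no difference passed the threshold after adjustment.

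At baseline, before any banding, all 6 estimates were lower in the shunt arm. The baseline fit used the 11 baseline arrays alone. In limma 0 of 6 passed and 0.0208% of probe sets did, while 1 of 6 genes and 11.8% of probe sets had an unadjusted p under 0.05. That gene was TAGLN, at 8.27 ± 0.17 in shunt pigs and 8.54 ± 0.26 in control pigs (SD, n = 6 and 5), with a difference of -0.27 ± 0.12 (SE) and a limma adjusted p of 0.412. CNN1 had a difference of -0.33 ± 0.29 and CDH5 one of -0.26 ± 0.15. These values and the count of genes rest on the brightest probe set of each gene. The other CDH5 probe set had a difference of -0.33 ± 0.11 (SE). Its unadjusted p in limma was 0.0135, and it did not pass after adjustment. The other TEK probe sets had -0.04 ± 0.12 and -0.08 ± 0.10, with neither at an unadjusted p under 0.05. Since no array set told apart by the spiked-in controls holds both arms, array set and arm cannot be told apart in any of these.

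Other endothelial genes measured at 120 min are given beside the shares over all genes. Of 34 endothelial markers 25 were measured, and without the 4 members among them 2 of 21 rose and 2 fell at 120 min. Their median change was -0.03, against -0.02 over all 6765 genes, of which 13.1% rose and 20.8% fell, both larger shares than in the list. At an unadjusted p under 0.05 there were 8 of the 21, close to the 39.6% of all probe sets, so nothing is read from these counts. The lists were drawn up with earlier results of these data known. THBD, which encodes the anticoagulant receptor thrombomodulin, rose by 0.93 ± 0.23 (SE, limma adjusted p = 0.00355) and was higher in 11 of 11 pigs. NOS3, endothelial nitric oxide synthase itself, rose by 0.27 ± 0.09 (limma adjusted p = 0.0182). S1PR1, the sphingosine phosphate receptor that steadies the endothelial barrier, fell by 0.58 ± 0.08 in 11 of 11 pigs (limma adjusted p = 1.26e-05), and CD34 fell by 0.27 ± 0.07 (limma adjusted p = 0.00637). PECAM1, with a change of -0.08 ± 0.07, and VWF, with -0.04 ± 0.08, did not pass.

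**Figure D4:**
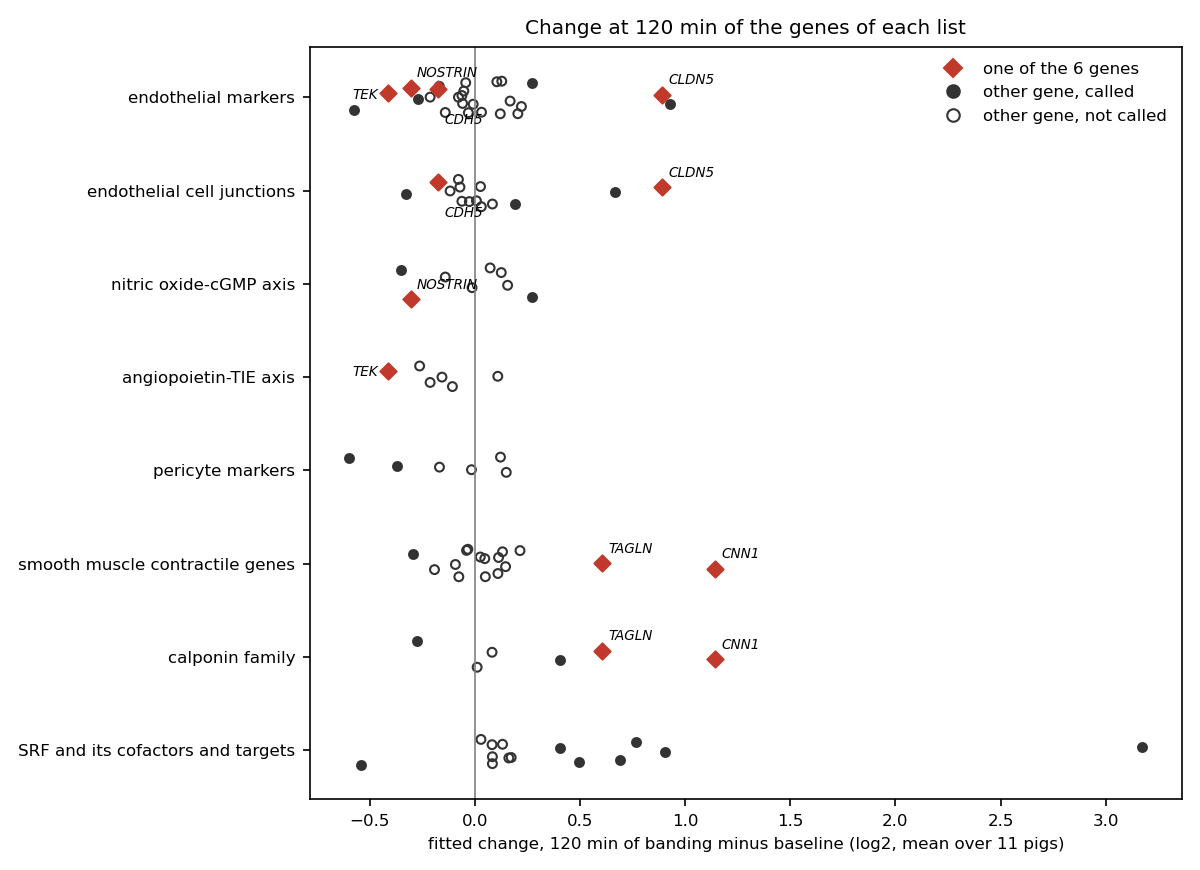
Fitted change from baseline to 120 min of banding (x axis, log2, mean over 11 pigs) of every measured gene of 8 lists (rows). Red diamonds are the 6 genes described, filled circles other genes that passed an adjusted p of 0.05 and open circles genes that did not; vertical scatter within a row has no meaning. CNN1 (1.14) and TAGLN (0.61) lie to the right of all other smooth muscle contractile genes.

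Among endothelial junction genes 12 were measured besides CLDN5 and CDH5, and 2 rose and 1 fell. Over all genes 13.1% rose and 20.8% fell. GJA4, a gap junction connexin of arterial endothelium, rose by 0.67 ± 0.08 (SE) in 11 of 11 pigs (limma adjusted p = 2.23e-06). CTNND1, the catenin that binds the inner tail of VE-cadherin, rose by 0.19 ± 0.06 (limma adjusted p = 0.0201). OCLN, which encodes the tight junction protein occludin, fell by 0.33 ± 0.10 in 10 of 11 pigs (limma adjusted p = 0.0200), the other way from CLDN5. VCL (0.08) was the junction gene with the next smallest p and did not pass.

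Of the angiopoietin axis 6 of 12 genes were measured, and 0 of the 5 besides TEK passed in limma. An unadjusted p under 0.05 was reached by 2 of the 5 and by 39.6% of all probe sets. Both measured ligands had negative estimates. That of ANGPT1, the activating ligand, was -0.26 ± 0.11 (limma adjusted p = 0.0634) and that of ANGPT2, the context-dependent antagonist, -0.16 ± 0.11 (limma adjusted p = 0.281). TIE1, the partner receptor of TEK, had an estimate of -0.21 ± 0.09 with a limma adjusted p of 0.0758, just outside the threshold, while CDH5 (-0.18 ± 0.06) was the nearest of the 6 on the inside. AKT1 (-0.11) and FOXO1 (0.11), which act downstream of the receptor, did not pass.

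Of the nitric oxide to cGMP axis 8 of 19 genes were measured. Besides NOSTRIN, 1 rose and 1 fell, where 13.1% of all genes rose and 20.8% fell. The riser was NOS3, given above, so that the enzyme and its trafficking adaptor moved opposite ways at 120 min. GUCY1B3, a subunit of the guanylyl cyclase that senses nitric oxide, fell by 0.35 ± 0.07 (SE) in 10 of 11 pigs (limma adjusted p = 0.000331). CAV1, the caveolar inhibitor of the synthase, had an estimate of -0.14 ± 0.06 (limma adjusted p = 0.0915), and HSP90AA1 (0.16), PDE5A (0.13), DDAH1 (0.07) and ARG2 (-0.01) did not pass.

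Most other contractile genes of smooth muscle did not pass. Besides CNN1 and TAGLN 14 contractile genes were measured of a list of 22, and 0 rose and 1 fell at 120 min in limma. Over all genes 13.1% rose and 20.8% fell. At an unadjusted p under 0.05 there were 1 of 14, against 39.6% of all probe sets. The one that fell was SMTN (smoothelin), by 0.29 ± 0.08 (SE, limma adjusted p = 0.00442). The estimates were -0.04 ± 0.15 for ACTA2, 0.11 ± 0.06 for CSRP1, -0.19 ± 0.10 for CALD1 and 0.21 ± 0.11 for DES, and none of these passed. The median of the 14 was 0.04.

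In the calponin family the 2 smooth muscle members were not alone. TAGLN2, the transgelin of non-muscle cells, rose by 0.41 ± 0.09 (SE) in 11 of 11 pigs (limma adjusted p = 0.000738). CNN3, the acidic calponin, fell by 0.28 ± 0.09 (limma adjusted p = 0.0174), though only 7 of 11 pigs were lower. CNN2 (0.08 ± 0.08) and TAGLN3 (0.01 ± 0.09) did not pass. Probe sets of such related genes can share signal, and how far these do was not tested.

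SRF, the factor that acts on CNN1 and TAGLN, was represented by a list of 23 cofactors and targets, of which 14 were measured. At 120 min 6 rose and 1 fell, against 13.1% and 20.8% of all genes. This list too was drawn up with earlier results of these data known, so its counts are a description. The part of SRF in the values of CNN1 and TAGLN was not tested. CYR61, a secreted matrix-associated protein, rose by 3.17 ± 0.27 (SE, limma adjusted p = 1.11e-08), and the integrin gene ITGA5 rose by 0.90 ± 0.10 (limma adjusted p = 2.35e-07). ANKRD1, a stretch-responsive repressor in cardiomyocytes, rose by 0.77 ± 0.07 (limma adjusted p = 6.95e-08), and FHL1, a sarcomere LIM protein, by 0.69 ± 0.06 (limma adjusted p = 1.61e-08). MYH9 and TAGLN2 were the remaining risers, and the related LIM gene FHL2 fell. MYH9, FHL2 and MYOCD lie outside the rule for named genes and were added after their values were seen. MYOCD, the SRF cofactor of smooth and cardiac muscle, had an estimate of 0.16 ± 0.09 and did not pass, with a limma adjusted p of 0.181. Several of these targets are also made by cardiomyocytes.

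Pericytes share the vessel wall with the cells of these genes. Of 6 measured pericyte markers 2 fell and 0 rose at 120 min in limma, where 20.8% of all genes fell and 13.1% rose. At an unadjusted p under 0.05 there were 3 of 6, against 39.6% of all probe sets. KCNJ8, a potassium channel subunit of pericytes and smooth muscle, fell by 0.60 ± 0.05 (SE) in 11 of 11 pigs (limma adjusted p = 1.6e-08), and HIGD1B by 0.37 ± 0.09 in 10 of 11 pigs (limma adjusted p = 0.00317). RGS5 (-0.17) and MCAM (0.15) did not pass. The per-array mean of the 6 markers had medians of 8.55, 8.48 and 8.55 over the 3 biopsies of shunt pigs and of 8.78, 8.58 and 8.61 over those of control pigs.

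Markers of cells that enter with blood were measured in the same biopsies. The 7 measured neutrophil and monocyte markers of 12 had a median change of 0.24 at 120 min, and 3 rose: S100A9 by 1.38 ± 0.29 (SE, limma adjusted p = 0.000808), TYROBP by 0.42 ± 0.13 and CD14 by 0.23 ± 0.08, where 13.1% of all genes rose. In the later change 8.94% of all probe sets had an unadjusted p under 0.05 in shunt pigs and 3.07% in control pigs. Of the 7 markers 1 did in shunt pigs and 2 in control pigs, and 0 passed in limma in either arm. Their per-array mean ran from 5.16 to 5.59 at baseline, from 5.51 to 6.64 at 120 min and from 5.63 to 7.14 at the last biopsy of shunt pigs. Among control pigs it ran from 5.27 to 5.48, from 5.31 to 5.59 and from 5.54 to 5.90. Of 3 measured erythrocyte markers 0 passed in limma and 2 had an unadjusted p under 0.05, with a median of -0.49. Of 8 lymphocyte markers 0 rose and 2 fell, the 2 at an unadjusted p under 0.05, and of 4 adipocyte markers 1 rose and 1 fell. Of 11 fibroblast markers 1 rose and 2 fell, of 4 mesothelial and epicardial markers 0 passed and 0 had an unadjusted p under 0.05, and of 12 cardiomyocyte markers 0 rose and 1, PLN, fell. Beside these counts at 120 min, 13.1% of all genes rose, 20.8% fell, and 39.6% of all probe sets had an unadjusted p under 0.05. The part of these cell types in the values of CLDN5, CNN1, TAGLN, TEK, CDH5 and NOSTRIN was not tested.

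In the last 60 min 0 of the 123 listed genes other than the 6 passed in limma in either arm. At an unadjusted p under 0.05 there were 7 in shunt pigs, against 8.94% of all probe sets, and 4 in control pigs, against 3.07%. The arms did not differ past the threshold for any of the 123 in the response to banding, in the later change or over the whole course. An unadjusted p under 0.05 was reached by 13, 0 and 23 of the 123 in that order. Over all probe sets 6.90%, 3.07% and 12.2% reached it. The later estimates of THBD were 0.32 in shunt pigs and -0.31 in control pigs, and those of S100A9 were 1.07 in shunt pigs and 1.25 in control pigs.

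Over the 33 arrays, after each pig's mean was subtracted, the 6 genes formed 2 opposed sets. CNN1 correlated with TAGLN (r = 0.824) and with CLDN5 (r = 0.810), and TEK with NOSTRIN (r = 0.766). CLDN5 and TEK ran opposite ways (r = -0.869), as did CNN1 and TEK (r = -0.809). CDH5 was the least tied of the 6, with r = 0.619 to NOSTRIN and 0.518 to TEK. These are descriptions of arrays that share the biopsy time, the pig and the array set, and the time effect that chose the genes is within them.

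With the mean change of each array set subtracted, the changes at 120 min of 2 genes could be compared from pig to pig. These changes come from the choosing contrast, so the values describe the 11 pigs and carry no test. Over 15 pairs the largest r was that of TEK and NOSTRIN, with Pearson r = 0.814 and Spearman rho = 0.636. Without the 2 pigs farthest from the median TEK change r was 0.720. Within the 6 shunt pigs r was 0.0424, and the 5 control pigs are too few for a value of their own. CNN1 and TAGLN, whose changes were both largest in shunt pig 1, had r = 0.452 and rho = 0.518. With the 2 most distant pigs left out in the same way, their r was 0.233 and rho 0.267. CLDN5 and CDH5 had r = -0.695 and rho = -0.718. Every pair of CNN1 or TAGLN with CLDN5, TEK, CDH5 or NOSTRIN had the opposite sign to that over the 33 arrays. Examples are TEK and CNN1 (r = 0.645) and CLDN5 and CNN1 (r = -0.315). For some pairs this rests on subtracting the array set means. Before it, TEK and CNN1 had r = -0.148, CLDN5 and CNN1 0.121 and NOSTRIN and CNN1 -0.268, the signs of the 33 arrays. The remaining pairs of this kind had the opposite sign before it too. Pairs within CLDN5, TEK, CDH5 and NOSTRIN, and CNN1 with TAGLN, had the sign of the 33 arrays.

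**Figure D5:**
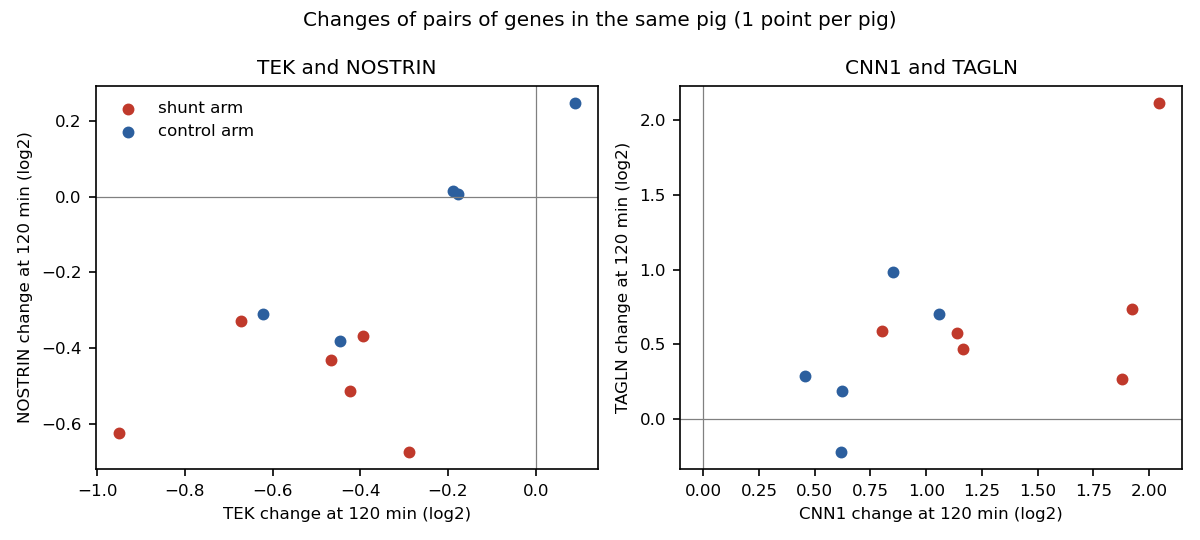
Change at 120 min of banding (log2) of NOSTRIN against TEK (left) and of TAGLN against CNN1 (right), with 1 point per pig, 6 shunt pigs in red and 5 control pigs in blue. The values are changes before array set means are subtracted. In the left panel 3 control pigs lie above 0 for NOSTRIN, and in the right panel shunt pig 1 lies at 2.05 and 2.11.

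The genes whose pattern over the 33 arrays was most like each member were named by Pearson r of values with the pig mean removed. For CLDN5 these were IRF8 (r = 0.952), IL6 (0.947) and STK17A (0.942). The fitted change of IL6, a cytokine gene, was 2.96 at 120 min, larger than that of CLDN5. For TEK they were TSPAN13 (0.964), HMBOX1 (0.945) and ALS2CL (0.942), and for NOSTRIN they were SQOR (0.875), PAPOLA (0.870) and RBM5 (0.864). CDH5 had no close neighbour, with FSCN1 (0.794), NUDT5 (0.779) and RALB (0.769) at the top. For CNN1 they were PDLIM3 (0.962), MAPRE1 (0.961) and CRYAB (0.957). PDLIM3, a protein of the Z disc, and CRYAB, a small heat shock protein, had fitted changes of 1.41 and 0.54 at 120 min. For TAGLN they were AEBP1 (0.926), AQP3 (0.916) and PITPNB (0.911). No member was among the nearest genes of another, and the r of each is a description over arrays that share their pigs, times and array sets.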

How the data were processed

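RNA of 33 right ventricular biopsies from 11 pigs was measured on porcine Affymetrix arrays. The authors deposited log2 values, 1 per probe set, made with RMA per the submitters' processing notes, which name neither its version nor the arrays processed as 1 batch. They were used without further scaling. Of 24123 probe sets 124 controls were left out. Symbols came from the platform annotation (10069 probe sets with 1 symbol, 198 with several, 13732 with none; 9961 matched RefSeq by Entrez number), and a gene was represented by its brightest probe set. No genome build was given, so no positions are printed.

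Changes were fitted in limma 3.58.1 (R 4.3.3) on all arrays with pig as a fixed block and coefficients for each arm and biopsy (18 residual degrees of freedom), two-sided, with Benjamini-Hochberg adjustment over 23999 probe sets. The pairing comes from the pig in the labels, and arrays of the same pig had a median r of 0.395 after group means were removed, against -0.0524 between pigs. The members, lists and naming rule (all members with every probe set, the 3 genes of most similar pattern to each, and up to 4 genes of smallest p per list, more for the calponin, angiopoietin and nitric oxide lists) were chosen with earlier results of these data known. Scripts were tested on simulated data. Alternatives were median centring, quantile normalisation, no block, a random block, an intensity trend with robust eBayes, array weights, a filter of the dimmest 30%, the mean of a gene's probe sets, each array set alone and each pig left out.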

Additional observations from a re-analysis of the deposited data

Results flagged for a closer look

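In groups of 5 or 6 pigs, 9 of 72 sets of levels and changes held 1 pig whose gap to its nearest neighbour, as a share of the group's range, passed Dixon's 95% limit. Chance gives about 1 in 20 for a single set. The changes are made from the same levels, so the flags are not independent and their number was not tested. TAGLN of shunt pig 1 accounts for 4 of them: its level was 10.38 at 120 min, with the next highest at 8.99 (share 0.796), and 11.15 at the last biopsy, with the next at 9.06 (0.830), and its change from baseline was 2.11 at 120 min (0.745) and 2.89 at the last biopsy (0.712). TAGLN of control pig 3 was low at baseline, 8.08 with the next at 8.61 (0.807). CLDN5 changed least at 120 min in shunt pig 6, by 0.31 with the next at 1.01 (0.679), and most over the whole course in control pig 2, by 1.78 with the next at 0.53 (0.830). NOSTRIN changed by -0.66 over the course in control pig 4, with the next at -0.30 (0.886). CNN1 changed by -0.59 from 120 min to the last biopsy in control pig 5, where the next was 0.23 (0.799).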

How the results depend on the processing

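The changes of the 6 genes at 120 min kept their sign under all alternatives and with each pig left out. With the mean of a gene's probe sets that of TEK was -0.09, and in shunt pigs 5 and 6 alone that of NOSTRIN was -0.59. Without the replicate block the estimates were the same and 4865 probe sets passed at 120 min, against 6964. Each array set alone gave 2369 (shunt pigs 1 to 4), 454 (shunt pigs 5 and 6) and 1790 (control pigs). Some estimates changed sign. With the mean of probe sets the arm differences of TEK were 0.041 at 120 min, against -0.26, and 0.049 over the course, against -0.21, that of CDH5 was 0.016 at 120 min, and the later control change of CDH5 was -0.0091 (quantile normalised, -0.0073). In shunt pigs 5 and 6 alone the later changes were 0.10 for TEK and -8.15e-05 for CDH5. With array weights the arm differences of the later change were -0.012 for TEK and -0.0047 for CDH5, and that of CDH5 over the course was -0.063. With each pig left out in turn, the later change ran from -0.15 to 0.043 for TEK with the shunt, and without it from -0.15 to 0.12 for CLDN5, -0.028 to 0.048 for CDH5 and -0.14 to 0.077 for TAGLN. Its arm difference ran from -0.046 to 0.15 for TEK and -0.098 to 0.16 for CNN1, that of the whole course from -0.072 to 0.072 for CDH5 and -0.13 to 0.0071 for NOSTRIN, and that at baseline from -0.11 to 0.0089 for NOSTRIN. Members called in the arm difference of the whole course ran from 0 to 1, the 1 being CNN1 without shunt pig 4, where 274 probe sets passed. Probe sets called in the later change of the shunt arm numbered 0, but 1 with a random block, 46 with array weights and 0 to 11 with a pig left out. For the arm difference over the course they numbered 1, but 0 without the replicate block, 189 with array weights and 0 to 274 with a pig left out. At baseline they numbered 5, but 1 after centring, 1 with a trend and robust eBayes, and 0 to 2 with a pig left out. The cause of these shifts was not tested. The number of pigs, and probe sets near the low end of the signal, limit what could be seen.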
